A study of Sus scrofa with 16 samples.

Results

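Catalase (CAT) and 9 further genes of antioxidant defense were described in pig liver under 3 dietary fats. The 10 genes were given by name (CAT, SOD1, SOD2, GPX1, GPX4, PRDX1, PRDX6, TXNRD1, GCLC and NFE2L2) and found in the count files by the gene identifier that carries each pig symbol. Of the 25880 genes listed per liver, of which 14857 have a symbol, 9 were members, and 8 of these had enough reads to be tested. GPX1 had no matching identifier among the genes counted, and GPX4 was listed at 0 reads in all 16 pigs.

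The study asked how the type of fat in otherwise similar feed changes gene expression in the liver. For each of 16 crossbred pigs, 1 library of liver mRNA was read from its 3′ end. The groups were rapeseed oil (group R, 5 pigs, 3 gilts and 2 castrated males or barrows), beef tallow (group B, 5 pigs, 2 gilts and 3 barrows) and coconut oil (group C, 6 pigs, 3 gilts and 3 barrows). All pigs were the offspring of (Polish Landrace x Polish Large White) sows and (Duroc x Pietrain) boars, were kept in individual pens and were fattened from about 60 to 118 kg, on diets alike in energy and protein. No group without added fat was among the samples, so each value is relative to another fat. These are gene counts from whole liver tissue, in which fewer cells of a type and less RNA per cell cannot be told apart.

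Hydrogen peroxide and superoxide are by-products of respiration and of fatty acid oxidation. In the liver, superoxide dismutases turn superoxide into hydrogen peroxide, and catalase in peroxisomes, glutathione peroxidases and peroxiredoxins turn the peroxide into water. Most peroxiredoxins are recharged by thioredoxin and its reductase, and glutathione peroxidases by glutathione, whose synthesis starts with glutamate-cysteine ligase. NFE2L2 (NRF2) is a transcription factor that is degraded through KEAP1 in resting cells and activates many of these genes under oxidative stress.

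The libraries held 705669 to 1767671 reads on genes (median 1018321.5), as raw deposited counts. Reads that aligned to several places made up 15.4 to 38.1% of a library and were dropped, which leaves genes with close copies elsewhere in the genome uncertain. Levels are given as CPM, counts relative to the size of the library after TMM normalization over the 16 pigs, and means ± SD are over 5 pigs in groups R and B and 6 in group C. Log2 fold changes are from edgeR's quasi-likelihood test on the counts of the 2 diets compared, with p-values adjusted by the Benjamini-Hochberg method over all genes tested and called below 0.05. The first diet named in a comparison is the reference, and each group enters 2 of the 3 comparisons, so these are not independent. The liver label was checked against hepatocyte markers, of which 7 of 8 had reads in every pig and SERPINA1 had 7 reads in all pigs together. Their summed level was 119211 to 178317 CPM with rapeseed oil, 75050 to 173388 with beef tallow and 103844 to 204040 with coconut oil, with the lowest in beef tallow pig 3. Most of this sum was ALB, with 1554603 reads in all pigs together and 27364 to 152249 CPM per pig. The next marker was FGB, with 360652 reads, so the sum mostly follows 1 gene. Beef tallow pig 3 also had the highest summed level of Kupffer cell and macrophage markers, 1698 CPM, against 614 to 1161 CPM in the other pigs. Among neutrophil markers, MPO and ELANE had 0 reads, while S100A8, CSF3R and S100A12 had 70, 59 and 37 reads in all pigs together. Summed red blood cell markers overlapped between the diets (509 to 4677 CPM with rapeseed oil, 1648 to 2915 with beef tallow and 1282 to 4988 with coconut oil). Of the markers of other cell types, 2 were called, both higher in R vs. B, where edgeR called 1.11% of all genes tested. They are named here after their values were seen. CD163, a macrophage receptor (1 of 7 Kupffer cell and macrophage markers tested), rose from 110.4 ± 18.4 to 190.3 ± 22.7 CPM (log2 fold change 0.79, SE 0.17, edgeR adjusted p = 0.0414) and had 135.6 ± 25.03 CPM with coconut oil. LYVE1, a receptor of sinusoidal endothelium (1 of 4 endothelial markers tested), rose from 33.2 ± 6.13 to 61.1 ± 11.5 CPM (log2 fold change 0.88, SE 0.20, edgeR adjusted p = 0.0495) and had 60.05 ± 18.3 CPM with coconut oil. The other markers tested in these 2 lists were not called. The summed lists overlapped between the diets, at 614 to 1147, 848 to 1698 and 614 to 886 CPM for Kupffer cells and macrophages and 276 to 440, 364 to 457 and 333 to 412 CPM for endothelium in groups R, B and C. In the same order the medians were 1025, 994.4 and 673.6 CPM for Kupffer cells and macrophages. For endothelium they were 329.7, 422.3 and 368.2 CPM. The part of these markers in the results of R vs. B was not tested.

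Among the defense genes, 1 passed the edgeR test between any of the fats. GCLC, the catalytic subunit of glutamate-cysteine ligase, fell by 60.7% in mean level from rapeseed oil to beef tallow. CAT followed in the same comparison, with a mean of 6958 ± 468 CPM in group R and 4363 ± 1304 CPM in group B and no overlap between pigs, but did not pass by edgeR (adjusted p = 0.135). It passed by DESeq2, the test that the study used, and the paper names CAT among the genes lower with beef tallow. Of the 8 members tested in R vs. B, 1 was called, against 1.11% of all 6318 genes tested. In R vs. C, 0 of 8 were called against 0.138% of 6528 genes, and in B vs. C 0 of 8 against 0.0587% of 6812. Before adjustment, 2 members had a p below 0.05 in R vs. B (GCLC and CAT, where 15.0% of all genes had one), 5 had a p below 0.05 in R vs. C (SOD1 higher, and CAT, GCLC, PRDX6 and SOD2 lower in group C, against 13.0% of genes) and 2 in B vs. C (SOD1 higher and SOD2 lower in group C, against 11.5%). DESeq2 called 2 members in R vs. B (GCLC and CAT), 1 in R vs. C (CAT) and 0 in B vs. C, from the 8, 6 and 5 members it gave an adjusted p, where its share of all genes was 3.24%, 2.61% and 2.46%.

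**Figure D1:**
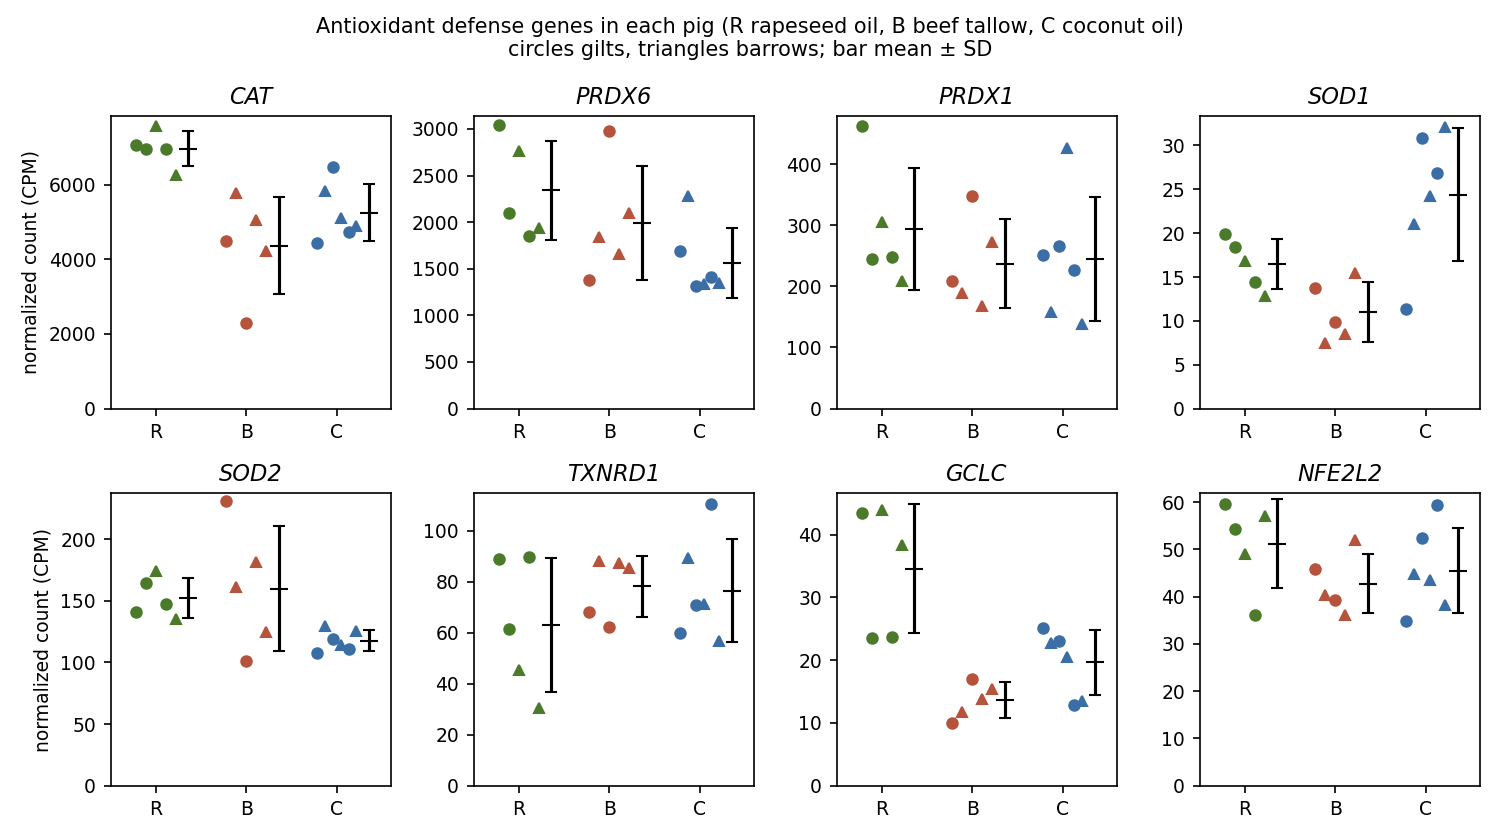
Normalized counts (CPM, linear axes from 0) of the 8 members tested, with 1 point per pig for rapeseed oil (R), beef tallow (B) and coconut oil (C), circles for gilts and triangles for barrows, and bars for the mean ± SD. The 5 beef tallow pigs lay below all 5 rapeseed oil pigs in CAT and GCLC, and the 6 coconut oil pigs below all rapeseed oil pigs in SOD2.

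The superoxide dismutases had different orders of the diets. SOD1, the copper-zinc enzyme of the cytosol (ENSSSCG00000021355, chr13:195326573-195335273 in the RefSeq annotation of Sscrofa11.1), was counted with 7 to 57 reads per pig. Its level was 19.9, 18.5, 16.8, 14.4 and 12.8 CPM in rapeseed oil pigs 1 to 5. In beef tallow pigs 1 to 5 it was 13.8, 7.43, 9.85, 8.50 and 15.5 CPM. The 6 coconut oil pigs ranged from 11.3 to 32.1 CPM with a median of 25.6. Thus 5 of the 6 coconut oil pigs were above every beef tallow pig and every rapeseed oil pig, and the exception was coconut oil pig 1. The means were 16.5 ± 2.89 CPM in group R, 11.0 ± 3.47 CPM in group B and 24.4 ± 7.61 CPM in group C. The difference was largest in B vs. C, with a log2 fold change of 1.14 (SE 0.30, 95% interval 0.51 to 1.76), and did not pass after adjustment (edgeR adjusted p = 0.208, range 0.0872 to 0.403 with 1 pig left out). DESeq2 gave SOD1 no adjusted p in that comparison. In R vs. C the log2 fold change was 0.55 (SE 0.26, adjusted p = 0.385), and in R vs. B it was -0.58 (SE 0.28, adjusted p = 0.349). In 1 test over the 3 diets, SOD1 had an adjusted p of 0.0901 by edgeR, and of 0.0256 without coconut oil pig 1, the exception named above. Of the 16 fits of that test with 1 pig left out, this was the 1 with more members called than with all pigs. A smaller p was to be expected there, since the pig left out was the exception in its group, and SOD1 was not called with all pigs.

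SOD2, the manganese enzyme of the mitochondria (ENSSSCG00000040317, chr1:7679352-7689564), was lowest with coconut oil. The rapeseed oil pigs had 141.2, 164.2, 174.5, 147.3 and 135.7 CPM. The beef tallow pigs were spread more widely, at 230.8, 161.3, 101.1, 181.7 and 125.0 CPM. In the coconut oil pigs the range was 107.6 to 129.7 CPM with a median of 116.3. All 6 coconut oil pigs were therefore below all 5 rapeseed oil pigs, a separation found in that direction for 0.812% of the genes tested in R vs. C. The means were 152.6 ± 16.3, 160 ± 50.4 and 117.8 ± 8.56 CPM in groups R, B and C. The log2 fold change was -0.38 in R vs. C (SE 0.13, 95% interval -0.66 to -0.09, edgeR adjusted p = 0.255) and -0.44 in B vs. C (SE 0.19, adjusted p = 0.412). In R vs. B it was 0.07 (SE 0.21, adjusted p = 0.92), and the sign turned to -0.10 without beef tallow pig 1.

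Catalase, the peroxisomal enzyme that splits hydrogen peroxide into water and oxygen (ENSSSCG00000013302, chr2:26493664-26533881), was counted with 3488 to 9600 reads per pig, so counting error is small beside the spread between pigs. Its level was 7062, 6960, 7564, 6951 and 6252 CPM in rapeseed oil pigs 1 to 5. In beef tallow pigs 1 to 5 it was 4490, 5769, 2289, 5056 and 4211 CPM. Coconut oil pigs lay between 4436 and 6470 CPM with a median of 4999. All 5 beef tallow pigs and 5 of the 6 coconut oil pigs were below every rapeseed oil pig, and coconut oil pig 3 alone reached the rapeseed oil range. Of all genes tested in R vs. B, 1.99% were separated in this direction, and CAT and GCLC were the 2 members among them. The spread was narrow with rapeseed oil (coefficient of variation 6.73%) and wide with beef tallow (29.9%), where pig 3 was lowest.

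The log2 fold change of CAT in R vs. B was -0.67 (SE 0.21, 95% interval -1.12 to -0.23), with an adjusted p of 0.135 by edgeR and 0.0492 by DESeq2. Without beef tallow pig 3, the pig with the lowest summed hepatocyte and the highest macrophage markers, it was -0.51 (SE 0.15, edgeR adjusted p = 0.0908). Over the 10 fits with 1 pig left out it stayed between -0.80 and -0.51, and the adjusted p between 0.0908 and 0.281. In R vs. C the log2 fold change was -0.41 (SE 0.14, 95% interval -0.71 to -0.11), with an adjusted p of 0.239 by edgeR and 0.0214 by DESeq2. Beef tallow and coconut oil differed in CAT by 0.27 (SE 0.21, adjusted p = 0.633), and the 2 groups overlapped. In 1 test over the 3 diets the adjusted p of CAT was 0.145 by edgeR. Red blood cells also carry catalase, and their summed markers overlapped between the diets, as given above. The part of red blood cells in the CAT levels was not tested.

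**Figure D2:**
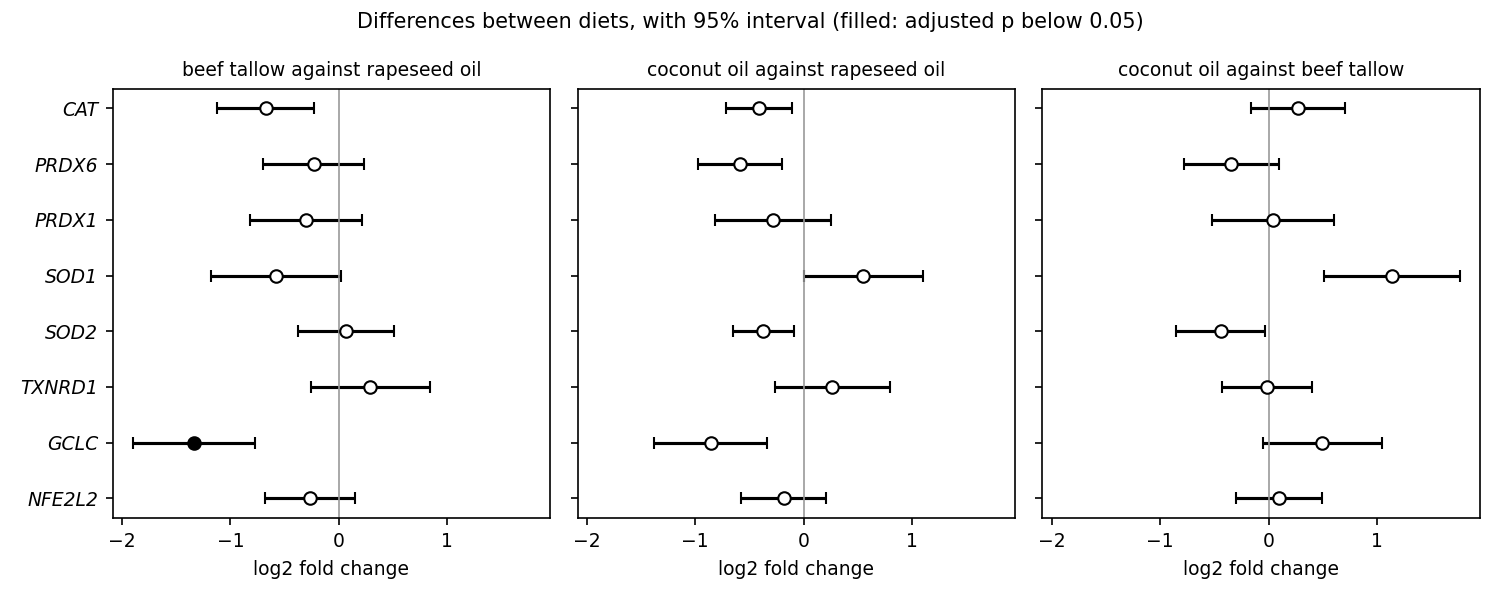
Log2 fold changes (x axis, second diet against first) of the 8 members tested in the 3 comparisons, with bars for the 95% interval and a filled point where the edgeR adjusted p was below 0.05. The 1 filled point is GCLC in beef tallow against rapeseed oil, at -1.34, and the intervals of CAT against rapeseed oil lay below 0 in both other fats.

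The glutathione peroxidases, selenium enzymes that reduce peroxides at the expense of glutathione, could not be compared. GPX1, the cytosolic enzyme (chr13:31916269-31917337), was not analysed here, since no counted gene carries its identifier. GPX4, which acts on lipid peroxides in membranes (ENSSSCG00000024052, chr2:77321568-77323931), had 0 reads in each pig. For counting error only, this allows a level of up to 1.70 CPM in the deepest library and 4.25 CPM in the shallowest. Whether reads of the GPX4 transcript reach the counted gene was not tested, so the 0 is not a measure of low expression.

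PRDX6, a peroxiredoxin of the cytosol that also acts on phospholipid peroxides (ENSSSCG00000022742, chr9:115857629-115868898), was highest with rapeseed oil and lowest with coconut oil. The rapeseed oil pigs had 3043, 2101, 2765, 1848 and 1941 CPM, and the beef tallow pigs 1378, 1840, 2977, 1659 and 2098 CPM. Coconut oil pigs ranged from 1317 to 2280 CPM with a median of 1374. Hence 5 of 6 coconut oil pigs were below all rapeseed oil pigs, and coconut oil pig 2 was the exception. Mean levels were 2340 ± 532, 1990 ± 611 and 1563 ± 378 CPM in groups R, B and C. In R vs. C the log2 fold change was -0.59 (SE 0.18, 95% interval -0.97 to -0.20, edgeR adjusted p = 0.195). It was -0.23 in R vs. B (SE 0.22, adjusted p = 0.659) and -0.35 in B vs. C (SE 0.21, adjusted p = 0.537).

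PRDX1, the main peroxiredoxin of the cytosol and nucleus (ENSSSCG00000003914, chr6:165847390-165859918), did not pass in any comparison, and the groups overlapped. Rapeseed oil pigs had 462.0, 245.2, 305.1, 247.3 and 208.5 CPM, beef tallow pigs 208.6, 188.8, 347.2, 167.9 and 273.2 CPM, and coconut oil pigs 139.1 to 426.0 CPM with a median of 239.5. The highest pig of group R was pig 1 and that of group B was pig 3, as for PRDX6. The log2 fold change was -0.31 in R vs. B (SE 0.24, 95% interval -0.82 to 0.21), -0.28 in R vs. C (SE 0.26) and 0.04 in B vs. C, with edgeR adjusted p-values of 0.59, 0.707 and 0.972.

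TXNRD1, the cytosolic selenium enzyme that keeps thioredoxin reduced with NADPH (ENSSSCG00000000843, chr5:80170334-80213889), was the 1 member with its lowest mean in rapeseed oil. Its level was 89.0, 61.6, 45.2, 89.6 and 30.5 CPM in rapeseed oil pigs, and 68.0, 88.1, 62.4, 87.1 and 85.2 CPM in beef tallow pigs. Coconut oil pigs ranged from 56.9 to 110.6 CPM with a median of 71.2. The groups overlapped, and the means were 63.2 ± 26.3, 78.1 ± 12.04 and 76.5 ± 20.3 CPM. The log2 fold change was 0.29 in R vs. B (SE 0.26, edgeR adjusted p = 0.641), 0.26 in R vs. C (SE 0.25, adjusted p = 0.726) and -0.02 in B vs. C (adjusted p = 0.99).

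The order of gilts and barrows in TXNRD1 was not the same in groups R and B. With rapeseed oil the 3 gilts had 61.6 to 89.6 CPM and the 2 barrows 30.5 and 45.2 CPM, while with beef tallow the 2 gilts had 62.4 and 68.0 CPM and the 3 barrows 85.2 to 88.1 CPM. The difference of the diet effect between barrows and gilts was 1.51 on the log2 scale (SE 0.39), and it did not pass over all genes (edgeR adjusted p = 0.999). No gene passed that test of an interaction of diet and sex by edgeR in R vs. B, and 3.96% of genes had an unadjusted p below 0.05. With sex as a covariate, GCLC kept an adjusted p of 0.0275 and CAT had 0.106 in R vs. B, both by edgeR.

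GCLC, whose reaction limits the rate of glutathione synthesis (ENSSSCG00000001488, chr7:27209565-27253535), was the 1 member called. It was counted with few reads, 23 to 59 per pig with rapeseed oil, 11 to 26 with beef tallow and 15 to 31 with coconut oil. Rapeseed oil pigs 1 to 5 had 43.4, 23.6, 44.0, 23.7 and 38.4 CPM, and beef tallow pigs 9.93, 11.7, 17.1, 13.8 and 15.5 CPM. Coconut oil pigs ranged from 12.8 to 25.1 CPM with a median of 21.7. All 5 beef tallow pigs were below all 5 rapeseed oil pigs, and the coconut oil pigs overlapped both groups. Within group R, pigs 2 and 4 were low and pigs 1, 3 and 5 high. The means were 34.6 ± 10.2 CPM in group R, 13.6 ± 2.86 CPM in group B and 19.7 ± 5.22 CPM in group C, a 2.55-fold range over the diets.

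In R vs. B the log2 fold change of GCLC was -1.34 (SE 0.27, 95% interval -1.90 to -0.77, edgeR adjusted p = 0.0285, and 0.0027 by DESeq2). It lay between -1.45 and -1.23 with 1 pig left out. The call was kept in 3 of these 10 fits (without rapeseed oil pig 2 or 4, or beef tallow pig 3) and was lost without rapeseed oil pig 1, 3 or 5, or beef tallow pig 1, 2, 4 or 5, at adjusted p-values up to 0.0878. The markers CD163 and LYVE1 rose in the same comparison, with values given above. In R vs. C the log2 fold change was -0.86 (SE 0.25, 95% interval -1.38 to -0.34, adjusted p = 0.151), and in B vs. C it was 0.50 (SE 0.26, adjusted p = 0.481). In 1 test over the 3 diets GCLC was the member called, with an edgeR adjusted p of 0.0296, where 0.711% of 6891 genes were called. In 6 of the 16 fits of that test with 1 pig left out, 0 members were called (without rapeseed oil pig 1, 3 or 5, or beef tallow pig 1, 2 or 4).

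**Figure D3:**
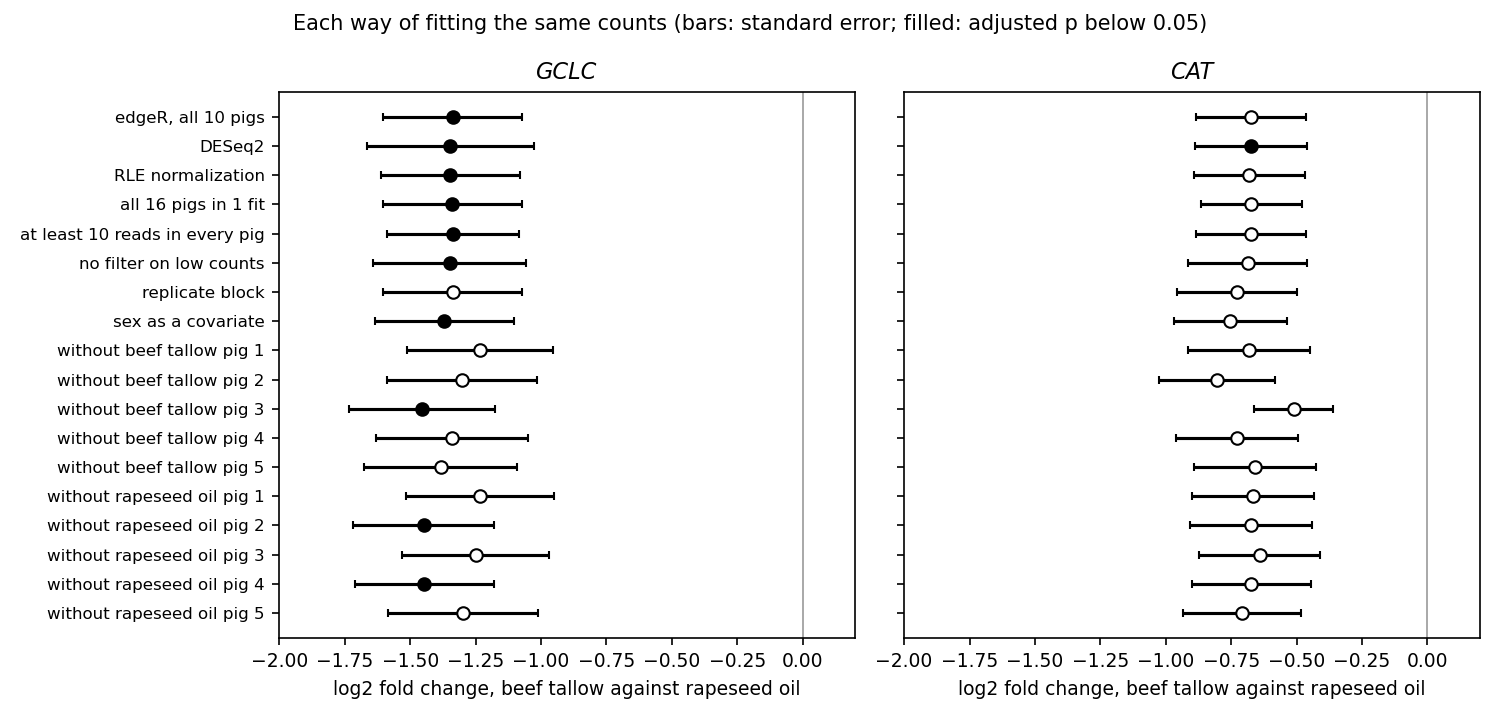
Log2 fold change of GCLC and CAT in beef tallow against rapeseed oil (x axis) under each way of fitting the same counts (y axis), with bars for the standard error and filled points for an adjusted p below 0.05. GCLC stayed between -1.45 and -1.23 and lost its call in 7 of 10 fits that leave out 1 pig and with the replicate number as a block, while CAT passed with DESeq2.

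The modifier subunit of the same ligase, GCLM, which raises the activity of GCLC, had its lowest mean with rapeseed oil, where GCLC had its highest, and nearly equal means with the other 2 fats. It is set beside GCLC here after its values were seen. Its mean was 30.5 ± 5.39 CPM in group R, 42.6 ± 14.5 CPM in group B and 43.3 ± 10.49 CPM in group C, and neither difference from rapeseed oil passed (log2 fold change 0.46, SE 0.25, adjusted p = 0.409 in R vs. B, and 0.47, SE 0.20, adjusted p = 0.325 in R vs. C, by edgeR). The ratio of GCLC to GCLM reads was 1.25, 0.852, 1.48, 0.639 and 1.62 in rapeseed oil pigs 1 to 5, and 0.371, 0.239, 0.591, 0.289 and 0.255 in beef tallow pigs. In coconut oil pigs it ranged from 0.328 to 0.886. All beef tallow pigs had a lower ratio than all rapeseed oil pigs, and this ratio, chosen after its values were seen, was not tested.

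NFE2L2, the regulator of many of these genes (ENSSSCG00000015987, chr15:82967485-83146185), had overlapping levels in the 3 diets. Rapeseed oil pigs had 59.6, 54.4, 49.1, 36.1 and 57.0 CPM, beef tallow pigs 45.8, 40.3, 39.4, 36.1 and 51.99 CPM, and coconut oil pigs 34.8 to 59.3 CPM with a median of 44.1. The mean was highest with rapeseed oil, at 51.2 ± 9.33 CPM, against 42.7 ± 6.25 in group B and 45.5 ± 9.05 in group C. Log2 fold changes were -0.27 in R vs. B (SE 0.20, 95% interval -0.68 to 0.15), -0.19 in R vs. C (SE 0.19) and 0.09 in B vs. C, with edgeR adjusted p-values of 0.555, 0.743 and 0.883. The protein, which is controlled by degradation, was not measured.

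Over the members as a group, the mean was highest with rapeseed oil in 5 of the 8 tested (CAT, PRDX1, PRDX6, GCLC and NFE2L2). Beef tallow was lowest in 5 (CAT, SOD1, PRDX1, GCLC and NFE2L2). The share of all genes with either order was not counted, so these orders cannot be set against the other genes. In R vs. B, 6 of 8 had a log2 fold change below 0 with a median of -0.29, beside 48.5% of genes below 0 and a median of 0.01 over all genes tested. In R vs. C it was again 6 of 8, with a median of -0.33 beside 50.1% and -0.0011, and in B vs. C 3 of 8, with a median of 0.07 beside 50.4% and -0.0045. These counts describe 8 genes and were not tested as a group.

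CAT was compared with the other 7 members over the 16 pigs, on log2 CPM with the mean of each diet removed. The highest correlation was with SOD2, with Pearson's r = 0.688 (permutation within diets p = 0.0735, adjusted over 7 relations 0.279) and Spearman's rho = 0.65 (permutation p = 0.00804, adjusted 0.0563). It was r = 0.49 without beef tallow pigs 3 and 2, the pigs farthest from the median of CAT, so the value rests in part on them. The beef tallow mean removed still included these pigs, so their part is not fully taken out. For the other 6 members r lay between -0.399 (PRDX6) and 0.297 (TXNRD1).

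Among 6890 other genes, the 5 with the highest Pearson's r with CAT over the 16 pigs on this scale were a gene without a symbol (ENSSSCG00000013596, r = 0.92), the iron exporter SLC40A1 (r = 0.91), TMEM106B, a lysosomal membrane protein (r = 0.898), PRDX3, the mitochondrial peroxiredoxin (r = 0.897), and TSFM, a mitochondrial translation factor (r = 0.893). Without beef tallow pig 3 the 5 values were 0.813, 0.812, 0.778, 0.775 and 0.703. The beef tallow mean removed here still included that pig, so its part in these values is not fully taken out. These are descriptions over pigs that share depth, sequencing and tissue makeup, and these genes were picked as the highest of many.

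Further genes of the pathway were read from 8 lists with 118 genes, of which 94 had an identifier among the genes counted and 69 were tested in at least 1 comparison. The counts in these lists stand beside 15.0% (R vs. B), 13.0% (R vs. C) and 11.5% (B vs. C) of all genes with an unadjusted p below 0.05, and 3.24%, 2.61% and 2.46% called by DESeq2. SESN2 (sestrin 2), a stress-induced gene grouped here with the repair of oxidised peroxiredoxins, was the 1 list gene called by edgeR in any comparison. Of all genes tested, edgeR called 1.11% (R vs. B), 0.138% (R vs. C) and 0.0587% (B vs. C). It was counted with 12 to 26 reads per pig in group R and 25 to 100 in group B. Its level was 15.4, 24.6, 27.2, 12.4 and 25.6 CPM in rapeseed oil pigs, and 51.2, 54.1, 65.6, 90.3 and 27.6 CPM in beef tallow pigs. Coconut oil pigs ranged from 16.97 to 54.2 CPM. All beef tallow pigs were above all rapeseed oil pigs, as for 2.58% of genes tested, and beef tallow pig 5 only just. SESN2 rose in R vs. B with a log2 fold change of 1.47 (SE 0.30, edgeR adjusted p = 0.0305, and 0.00131 by DESeq2), and the call was kept in 2 of 10 fits with 1 pig left out (without beef tallow pig 3 or 5). It was lost without any 1 of the 5 rapeseed oil pigs or beef tallow pig 1, 2 or 4, with log2 fold changes of 1.27 to 1.64 over the 10 fits, and with the replicate number as a block (log2 fold change 1.41, edgeR adjusted p = 0.0801). In R vs. C it was 0.68 (adjusted p = 0.353), and in B vs. C -0.80 (adjusted p = 0.354).

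Among the other superoxide and peroxide enzymes, 0 of 5 tested were called by edgeR or DESeq2 in any comparison, and the 1 gene with an unadjusted p below 0.05 was PRDX2 in R vs. C. PRDX3 had 355.5 ± 56.6 CPM in group R, 264.6 ± 77.3 CPM in group B and 303.9 ± 47.9 CPM in group C (R vs. B log2 fold change -0.43, SE 0.22, edgeR adjusted p = 0.362), and beef tallow pig 3 was its lowest pig at 140.5 CPM, as for CAT. PRDX2, the peroxiredoxin that red blood cells hold in large amounts, had a log2 fold change of -0.44 in R vs. C (SE 0.17, adjusted p = 0.272), and PRDX5 -0.30 in B vs. C (SE 0.22, adjusted p = 0.61). In the thioredoxin and glutaredoxin list, SESN2 was called in R vs. B and none of the 9 tested in the other 2 comparisons by edgeR or DESeq2, where 1 (R vs. C) and 2 (B vs. C) had an unadjusted p below 0.05. TXNIP, an inhibitor of thioredoxin, had 1302 ± 391 CPM in group R, 1641 ± 249 CPM in group B and 1525 ± 461 CPM in group C, and GLRX5, a mitochondrial glutaredoxin, had 199.2 ± 67.2, 180.8 ± 40.6 and 234.6 ± 57.8 CPM.

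The glutathione list had 0 of 11 genes called by edgeR in each comparison, while DESeq2 called 1, GSTK1 in R vs. B. There, 9 of 11 genes tested had a log2 fold change below 0, with a median of -0.51 beside 0.01 over all genes, and 4 of them had an unadjusted p below 0.05, as 2 genes did in R vs. C. In B vs. C, 10 of 11 were above 0 with a median of 0.34, 3 of them with such a p, and the same beef tallow pigs enter both counts. GSTK1, a glutathione transferase of mitochondria and peroxisomes, had 464.2, 456.5, 530.0, 506.9 and 491.7 CPM in rapeseed oil pigs, and 332.4, 419.1, 363.6, 319.8 and 278.7 CPM in beef tallow pigs. The 2 groups did not overlap, as for 1.99% of genes in this direction, and the log2 fold change was -0.51 (SE 0.16, adjusted p = 0.125 by edgeR and 0.0223 by DESeq2). MGST1, a glutathione transferase of membranes, had 958.5 ± 211 CPM in group R and 607.9 ± 257 in group B (log2 fold change -0.66, SE 0.27, edgeR adjusted p = 0.257). GSTZ1 was lower in all 6 coconut oil pigs than in all rapeseed oil pigs, as were 0.812% of genes (log2 fold change -0.46, SE 0.15, adjusted p = 0.206), GGCT had 0.81 in B vs. C (SE 0.26, adjusted p = 0.284), and GSTO1 had means of 780.7 to 887.8 CPM.

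**Figure D4:**
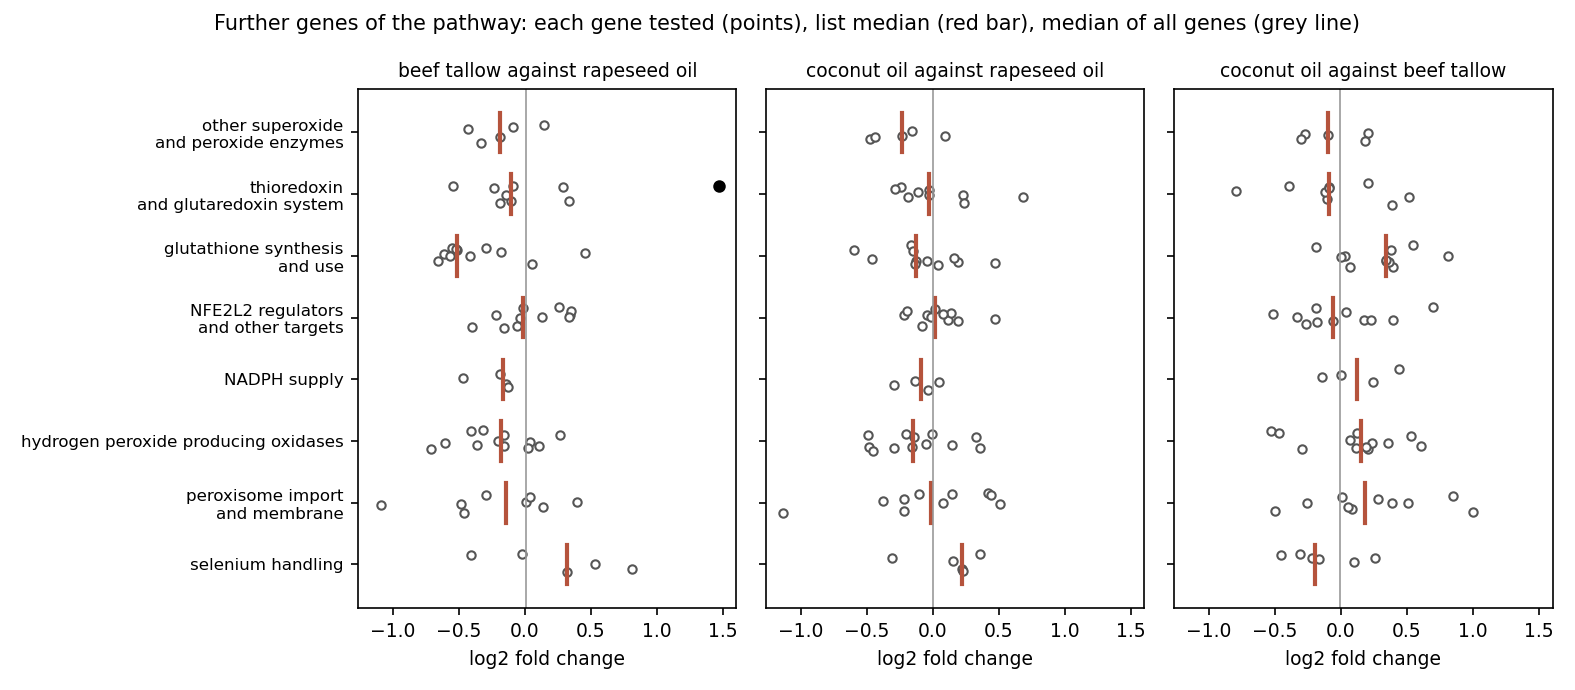
Log2 fold changes (x axis) of each gene tested in the 8 lists of further pathway genes (y axis) for the 3 comparisons, with red bars for the list medians, a grey line for the median of all genes and a filled point for an adjusted p below 0.05. The 1 filled point is SESN2 at 1.47 in beef tallow against rapeseed oil, and the glutathione list has medians of -0.51 in that comparison and 0.34 in coconut oil against beef tallow.

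Of 11 regulators and other targets of NFE2L2 tested, none was called in any comparison by edgeR or DESeq2, 0, 1 and 3 had an unadjusted p below 0.05 in the order of the comparisons above, and the medians were -0.01 for beef tallow and 0.02 for coconut oil against rapeseed oil, and -0.06 for coconut oil against beef tallow. SQSTM1, which binds KEAP1 and is itself a target of NFE2L2, had 442.1 ± 116 CPM in group R, 380.8 ± 164 CPM in group B and 614.0 ± 82.0 CPM in group C. Its log2 fold change was 0.47 in R vs. C (SE 0.18, edgeR adjusted p = 0.272) and 0.70 in B vs. C (SE 0.25, adjusted p = 0.307). BLVRB, a reductase of biliverdin and flavins, had -0.40 in R vs. B (SE 0.21, adjusted p = 0.382), and NFE2L1, a relative of NFE2L2, had means of 283.9 to 291.1 CPM. Among enzymes that supply NADPH, 0 of 4 passed by edgeR or DESeq2, and NNT in R vs. B was the 1 with an unadjusted p below 0.05. NNT, the mitochondrial transhydrogenase, had log2 fold changes of -0.47 in R vs. B (SE 0.20, edgeR adjusted p = 0.271) and 0.44 in B vs. C (SE 0.21, adjusted p = 0.447). TKT, of the pentose phosphate pathway, had -0.30 in R vs. C (SE 0.17, adjusted p = 0.488), and IDH1 had means of 251.2 to 295.3 CPM.

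The oxidases that release hydrogen peroxide, several of them in the same peroxisomes as catalase, had 0 of 12 called by edgeR in each comparison, while 4 (R vs. B), 2 (R vs. C) and 2 (B vs. C) had an unadjusted p below 0.05 and DESeq2 called 1, UOX in R vs. C. With 12 genes, 2 is close to the share of all genes with such a p in either comparison with coconut oil (13.0% and 11.5%). Uricase (UOX), a peroxisomal enzyme of purine breakdown, had 537.8 ± 72.6 CPM in group R, 328.7 ± 118 CPM in group B and 385.7 ± 60.6 CPM in group C. Beef tallow pig 3 was again lowest, at 154.3 CPM. The log2 fold change was -0.71 in R vs. B (SE 0.24, adjusted p = 0.153 by edgeR) and -0.49 in R vs. C (SE 0.15, adjusted p = 0.178 by edgeR and 0.0233 by DESeq2). XDH, the xanthine oxidoreductase, had 0.36 in B vs. C (SE 0.15, edgeR adjusted p = 0.395). The most abundant of the list were MAOB, with 1683 ± 143, 1269 ± 250 and 1373 ± 286 CPM in groups R, B and C, and AOX1, with 1328 ± 341, 1066 ± 168 and 1211 ± 135 CPM.

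Of the peroxisome import and membrane genes, 8 were tested in R vs. B and 10 in each other comparison, and none was called by edgeR or DESeq2, while 1 (R vs. B), 2 (R vs. C) and 3 (B vs. C) had an unadjusted p below 0.05. PEX5, the receptor that carries most peroxisomal enzymes to the import pore, had 20.8 ± 6.32 CPM in group R, 10.03 ± 5.14 CPM in group B and 20.5 ± 10 CPM in group C, from 3 to 39 reads per pig (R vs. B log2 fold change -1.09, SE 0.39, edgeR adjusted p = 0.187). PEX14, of the docking complex at the pore, had -1.13 in R vs. C (SE 0.37, adjusted p = 0.209), from 2 to 15 reads per pig. PEX26, a membrane anchor of the import machinery, was higher in all 6 coconut oil pigs (11.4 to 14.1 CPM) than in all 5 beef tallow pigs (5.31 to 9.19 CPM), with a log2 fold change of 0.85 (SE 0.26, adjusted p = 0.257), and 0.573% of genes were separated this way in B vs. C. The fatty acid transporter ABCD3 had means of 89.0 to 120.7 CPM and the carrier SLC25A17 of 83.4 to 92.6 CPM.

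The selenium list, which holds genes needed to make and transport selenium enzymes, had 0 called by edgeR or DESeq2, and SECISBP2 and SELENOS in R vs. B were the 2 with an unadjusted p below 0.05. SECISBP2, which directs selenocysteine into proteins, had 63.0 CPM in group R and 91.1 CPM in group B on average (log2 fold change 0.53, SE 0.19, edgeR adjusted p = 0.174), and -0.31 in B vs. C (SE 0.18, adjusted p = 0.529). SELENOS, a selenoprotein of the endoplasmic reticulum, had 65.6 ± 14.2 CPM in group R, 115.4 ± 53.1 CPM in group B and 84.5 ± 23.9 CPM in group C (R vs. C log2 fold change 0.35, SE 0.20, adjusted p = 0.466), and SELENOF had means of 94.1 to 124.7 CPM.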

How the data were processed

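Liver libraries of 16 pigs (QuantSeq 3′ mRNA-seq) were used. The authors checked reads with FastQC, trimmed them with FLEXBAR, mapped them with TopHat to Sscrofa 11.1 and counted them with HTSeq-count. They compared the diets with DESeq2. The authors deposited raw counts, with 25880 genes and 5 tallies of unassigned reads per file, which were left out of library sizes. Pairs of diets were fitted without covariates by the quasi-likelihood test of edgeR 4.0.16 (R 4.3.3) after TMM and filterByExpr (minimum count 10, minimum total 15), with Benjamini-Hochberg adjustment over all genes tested and a threshold of 0.05. The SE is the log2 fold change over the root of F. The methods were tested on simulated counts in which every gene had the same spread beyond counting error. This does not cover the unequal spread of real genes and groups.

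Genes were matched by identifier to the gene name table, with positions from RefSeq (Sscrofa 11.1). The members and lists were chosen with earlier results of these data known. Named besides the members are, in each list, the 2 genes with the highest mean level, the gene with the smallest p in each pair of diets and every gene called, and the 5 genes most correlated with CAT. GCLM was named after its values were seen. Replicates are separate pigs. Same-numbered pigs correlated above 0.1 in at most 1 of 5 pairs, so the numbers were not taken as pairs.

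Alternatives were DESeq2 1.42.0, RLE, no filter, a minimum of 10 reads in each pig, 1 fit of all 16 pigs, sex or the replicate number as a further term, and each pig left out. Precision was taken from the spread between pigs, which includes counting error. The qPCR of the study was not analysed here.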

Additional observations from a re-analysis of the deposited data

Results flagged for a closer look

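Of 111 groups of pigs compared gene by gene, for the members and the named list genes, 6 held 1 pig far from the others by Dixon's ratio, and chance alone gives about 1 in 20. None was in a member. GSTZ1 was at 359 CPM in rapeseed oil pig 1, against 232.9 to 259.6 CPM in the others of its diet. XDH was at 165.9 CPM in rapeseed oil pig 4 (others 209.3 to 219.3) and at 228.1 CPM in beef tallow pig 2 (others 151 to 170.4). PEX14 was at 3.88 CPM in rapeseed oil pig 3 (others 11.0 to 13.3) and at 9.71 CPM in coconut oil pig 1 (others 3.06 to 4.50), each from 15 reads or fewer. SECISBP2 was at 107.6 CPM in coconut oil pig 1 (others 60.5 to 72.5).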

How the results depend on the processing

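Counts of genes called moved more than the fold changes of the members. From 70 genes called in R vs. B, DESeq2 gave 188, no filter on low counts 190 and the replicate block 35. From 9 in R vs. C, DESeq2 gave 93, no filter 82 and at least 10 reads in every pig 14, and from 4 in B vs. C, DESeq2 gave 53, no filter 22 and all 16 pigs in 1 fit 8. The test over the 3 diets called 49 genes, and 190 without a filter. Members called in R vs. B went from 1 to 2 with DESeq2 and to 0 with the replicate block (GCLC adjusted p = 0.0538), and in R vs. C from 0 to 1 with DESeq2. The list gene SESN2 also lost its call with the block (adjusted p = 0.0801). Same-numbered pigs did not deviate together (correlations from -0.25 to 0.145), and 1 (R vs. B), 3 (R vs. C) and 2 (B vs. C) of 5 pigs correlated best with their own number, so the block is a hint from the data only. With 1 pig left out, 9 to 149 genes were called in R vs. B (149 without beef tallow pig 3, 9 to 36 without rapeseed oil pig 1, 2, 3 or 5 or beef tallow pig 1, 2, 4 or 5), 3 to 27 in R vs. C (27, 25 and 19 without coconut oil pig 3, rapeseed oil pig 4 and coconut oil pig 1, and 3 to 5 without rapeseed oil pig 2 or 3 or coconut oil pig 4 or 6), 4 to 9 in B vs. C (9 without beef tallow pig 2) and 15 to 96 over the 3 diets (96 without beef tallow pig 3, 15 without beef tallow pig 4, and 28, 26 and 22 without rapeseed oil pigs 1, 3 and 5). Members called ranged from 0 to 1 in R vs. B and from 0 to 2 over the 3 diets, the 2 without coconut oil pig 1. They stayed at 0 in R vs. C and B vs. C. Over the members, 161 of 166 fold changes under other settings and 237 of 256 with 1 pig left out kept direction and call. Of the 24 results behind these counts, 1 was called in the main fit, GCLC in R vs. B. It kept its call in 3 of 10 fits with 1 pig left out. The others were not called in the main fit, so for them keeping the call means staying uncalled. Differences near 0 changed sign: TXNRD1 in B vs. C was 0.0056 without a filter and 0.026 with the replicate block, and with 1 pig left out SOD2 in R vs. B ranged from -0.10 to 0.20 and, in B vs. C, PRDX1 from -0.19 to 0.22, TXNRD1 from -0.17 to 0.058, NFE2L2 from -0.013 to 0.16 and GCLM from -0.11 to 0.18. The causes were not tested. Depth limits SOD1, GCLC, SESN2, PEX5, PEX14 and PEX26, which have under 60 reads in most pigs.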
